A study of Mus musculus with 2 samples.

Results

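T cell receptor gene segments are the V, D, J and C pieces from which T cells assemble the genes for their antigen receptors. The GENCODE M21 annotation was searched for genes typed as T cell receptor V, D, J or C genes, which gave 226 of 55413 genes on 21 chromosomes. Of these, 172 lie in the alpha/delta locus on chromosome 14, 39 in the beta locus on chromosome 6 and 15 in the gamma locus on chromosome 13. No measured value was used to choose them, and 44 annotated T cell receptor pseudogenes were set aside for comparison.

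In developing thymocytes the RAG recombinase cuts beside V, D and J segments at recombination signal sequences, a heptamer and a nonamer held apart by a short or a long spacer. The cut ends are joined, and the DNA between them is lost or inverted, so that a chosen V segment comes to lie beside a J segment and is transcribed into the C segment. The delta segments lie inside the alpha locus and are cut out when an alpha V segment joins an alpha J segment. Promoters at the 5′ ends of V segments and enhancers beside the C segments are known to control both recombination and transcription of these loci.

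ATAC-seq, which maps open chromatin by where the Tn5 transposase inserts, was carried out on regulatory T cells, the CD4 lineage that depends on Foxp3. The primary cells are labelled as mouse, adult, male and aged 4 months, from a cross that carries Foxp3CreERT2 (an inducible Cre recombinase at Foxp3) and Rosa26YFP (a fluorescent reporter at Rosa26). The labels trace the cells to a haematopoietic cell of the bone marrow and do not say which organ they were sorted from. Both libraries, 2 in number, are technical repeats of a single biological sample, and their peaks were called on a shared alignment to mm10, so there is 1 pooled value per peak, no comparison between groups and no spread between animals.

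Peak lists came in a shorter form thresholded by the irreproducible discovery rate (IDR), 34610 peaks, and a longer pseudoreplicated form, 58871 peaks. The signal of a peak is the authors' enrichment value, with a reference that the sources used here do not give. Markers matched the label: the 5′ ends of 5 of 5 regulatory T markers and 3 of 3 T cell markers held a thresholded peak, against 1 of 2 CD8 markers (Cd8b1, signal 10.7) and 0 of 4 gamma delta T, 0 of 4 B cell, 0 of 2 NKT, 0 of 2 NK and 0 of 3 myeloid markers. On the longer list the NKT marker Klrb1c and the B cell marker Cd79b also held a peak, with signals of 3.13 and 4.59. The files give no counts of reads, so the depth behind each peak is unknown. These cells carry rearranged loci, and fewer DNA copies of a stretch cannot be told apart from less open chromatin on it. In such a bulk sample fewer cells with an open segment and less opening per cell cannot be told apart either.

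Sequences under the peaks beside the C segments and at the first D segment of the beta locus are shown because no V segment lies under them and the strongest −log10 p values of the alpha/delta and beta loci fell at the peaks past Trac and past Trbc2. Each is 200 bases around the summit, read from the plus strand of GRCm38.p6, with capitals for RUNX (TGTGGT), ETS (AGGAAG or CGGAAG), the letters of GATA factors (AGATAA), E box (CAGGTG or CAGCTG), NFAT (TGGAAA), AP-1 (TGACTCA or TGAGTCA), TCF/LEF (CTTTGAA or CTTTGAT) and CRE (TGACGTCA, variant TGATGTCA) matches on either strand. They cover chr14:54222477-54222676 in the Trac intron, chr14:54227534-54227733 past Trac, chr6:41532765-41532964 at Trbd1 and chr6:41554438-41554637 between Trbc2 and Trbv31. In the second of them the RUNX match and the E box match overlap. The Trbd1 stretch holds no match.
Trac intron peak: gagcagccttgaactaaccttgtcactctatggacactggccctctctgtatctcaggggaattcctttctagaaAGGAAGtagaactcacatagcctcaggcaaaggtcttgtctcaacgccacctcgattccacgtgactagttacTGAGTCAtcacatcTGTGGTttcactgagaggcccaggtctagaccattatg
Peak past Trac: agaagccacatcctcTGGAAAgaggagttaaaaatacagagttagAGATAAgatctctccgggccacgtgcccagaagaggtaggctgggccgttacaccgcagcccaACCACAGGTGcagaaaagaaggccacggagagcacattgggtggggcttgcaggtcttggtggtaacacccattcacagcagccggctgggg
Trbd1 peak: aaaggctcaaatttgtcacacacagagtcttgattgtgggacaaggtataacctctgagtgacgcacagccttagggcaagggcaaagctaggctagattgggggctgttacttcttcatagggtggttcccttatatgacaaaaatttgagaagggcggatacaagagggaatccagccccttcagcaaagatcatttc
Trbc2 to Trbv31 peak: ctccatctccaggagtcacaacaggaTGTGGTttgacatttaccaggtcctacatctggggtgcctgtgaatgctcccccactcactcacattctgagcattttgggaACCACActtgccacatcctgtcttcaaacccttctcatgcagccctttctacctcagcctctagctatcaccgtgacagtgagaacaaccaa

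Recombination signals are shown for a V, a D and a J segment that held peaks, to give the cut sites that the segments share. Capitals mark the heptamer (consensus CACAGTG beside a V segment) and the nonamer (consensus ACAAAAACC), each 5′ to 3′ in the direction of the gene, at chr6:40891886-40891924, chr6:41533213-41533251 and chr14:54211442-54211469, all on the plus strand. Directly past the annotated 3′ end, 141 of 144 V members had a heptamer that starts with CAC, and 104 had the consensus heptamer. Of the 2 spacers, the nonamer fitted better after 23 bp in 142 of the V members and after 12 bp in 69 of 70 J members. No minimum fit was set, and at least 7 of the 9 nonamer bases matched in 87 of 144 V and 44 of 70 J members. Among the V members with a thresholded peak 24 of 43 had the consensus heptamer, and among those without 80 of 101 had it. These totals mix loci that differ in it: 95 of 115 alpha/delta, 8 of 22 beta and 1 of 7 gamma V members had it. With and without a peak, it was found in 20 of 28 and 75 of 87 alpha/delta V members. The counts were 4 of 12 and 4 of 10 for beta, and 0 of 3 and 1 of 4 for gamma V members.
Trbv1 recombination signal: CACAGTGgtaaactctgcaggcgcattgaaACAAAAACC
Trbd1 recombination signal: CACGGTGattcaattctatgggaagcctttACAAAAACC
Traj7 recombination signal: CGTTTTTGTgaagcacttactCAGAGTG

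Peaks lay more densely over all 3 loci than over the genome, and those at V 5′ ends made up the larger part of them in the alpha/delta locus only. The alpha/delta locus with 20 kb on either side (chr14:52407928-54244206) held 54 thresholded peaks, the beta locus (chr6:40871229-41578452) 25 and the gamma locus (chr13:19158024-19372756) 7. Peaks per Mb came to 29.4, 35.3 and 32.6 in that order, against 12.7 over the genome, or 2.32, 2.78 and 2.57 times as many. These ratios depend on flank and threshold: without the flanks the gamma ratio was 1.35, with peaks at or above the median signal (here and over the genome) the beta ratio was 1.11, and at or above the median −log10 p the alpha/delta ratio was 1.201 and the beta ratio 1.78. The locus peaks were narrower than others, with a median width of 411 bp against 668 bp over all thresholded peaks. Of the 54 alpha/delta peaks 34 overlapped the 5′ end of a V segment or V pseudogene, as did 12 of the 25 beta peaks and 3 of the 7 gamma peaks.

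**Figure D1:**
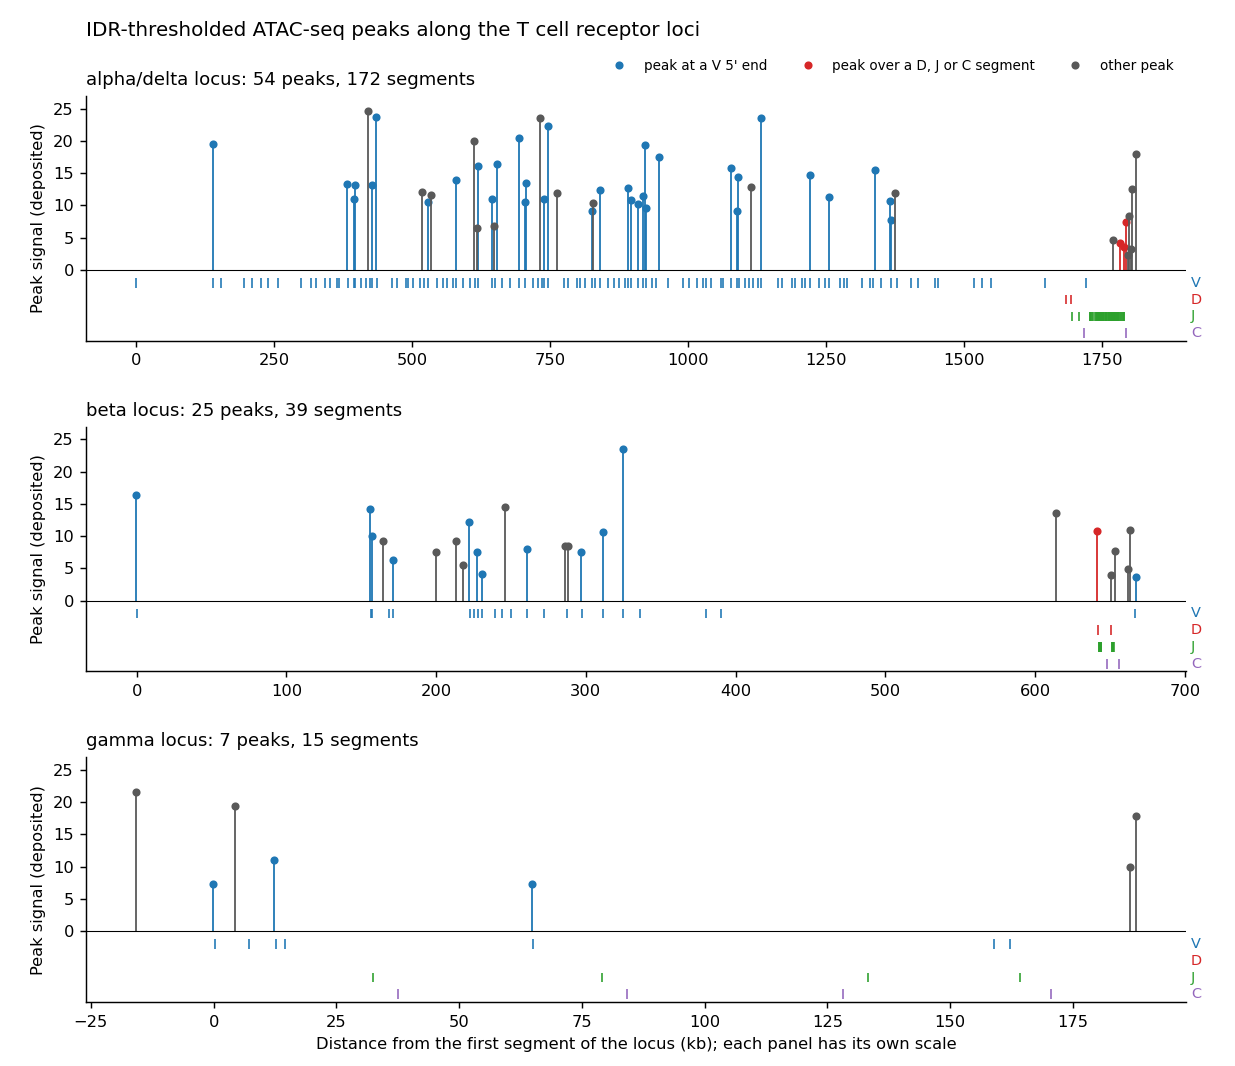
Thresholded peaks along each locus, with the deposited signal on the y axis and the distance in kb from the first segment on the x axis. Ticks under each panel mark the V, D, J and C members. In the alpha/delta and beta loci peaks lay over the V part and again at the J and C end. No peak lay over a J or C member in the beta or the gamma locus. The widest gaps were 395 kb, 289 kb and 122 kb in the alpha/delta, beta and gamma loci.

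V segments encode most of the variable domain, and their 5′ ends carry the promoter. A V segment was counted as open when a peak overlapped the 500 bp on either side of its annotated 5′ end. By this measure 43 of 144 V members held a thresholded peak (29.9%), against 23.7% of all genes and 47.2% of 21938 protein-coding genes. On the pseudoreplicated list 73 of 144 did (50.7%), against 26.8% of all genes and 51.6% of protein-coding genes. The beta V segments had the larger share, 12 of 22 (54.5%, exact Clopper-Pearson 95% interval 32.2 to 75.6, counting error only). The share was 3 of 7 in the gamma locus (42.9%, 9.90 to 81.6) and 28 of 115 in the alpha/delta locus (24.3%, 16.8 to 33.2), where it was near the share of all genes. Immunoglobulin V segments, the same kind of gene in the B lineage, held a peak in 14 of 218 (6.42%, 3.56 to 10.5). T cell receptor V pseudogenes held one in 4 of 34, all of them in the alpha/delta locus.

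**Figure D2:**
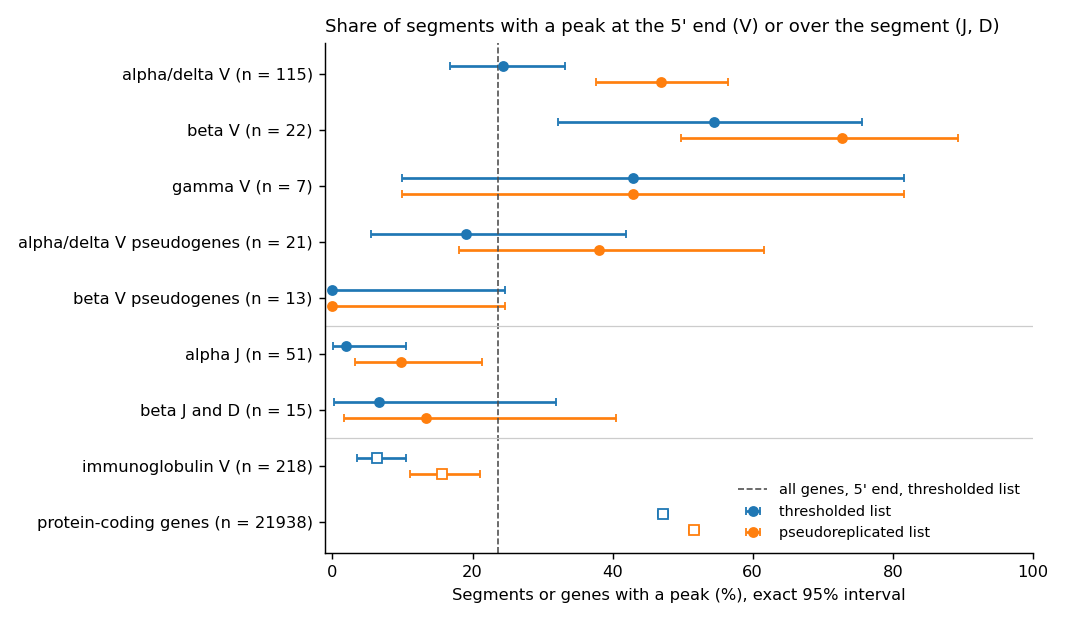
Share of segments with a peak, in percent, with exact 95% intervals as bars, for the thresholded list (blue) and the pseudoreplicated list (orange), and the 23.7% of all genes as a dashed line. V segments of the beta locus lie at 54.5% and alpha/delta V segments at 24.3%, while alpha J segments lie at 1.96%.

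Summits at V segments lay just upstream of the annotated 5′ end. Of the 43 peaks 40 had their summit upstream, 36 of them within 200 bp, and the median position was −86 bp. The median was −89.5 bp for alpha/delta, −87.5 bp for beta and −74 bp for gamma V segments. The exceptions on the downstream side were Trav13d-4, Trav13n-3 and Trbv13-2, where the summit lay 587, 427 and 502 bp downstream of the 5′ end, inside the segment for Trav13n-3 and past its 3′ end for the others. Most V peaks were below the median of all thresholded peaks in both measures: 16 of 43 reached the median signal (13.2), and 9 of 43 reached the median −log10 p (115).

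**Figure D3:**
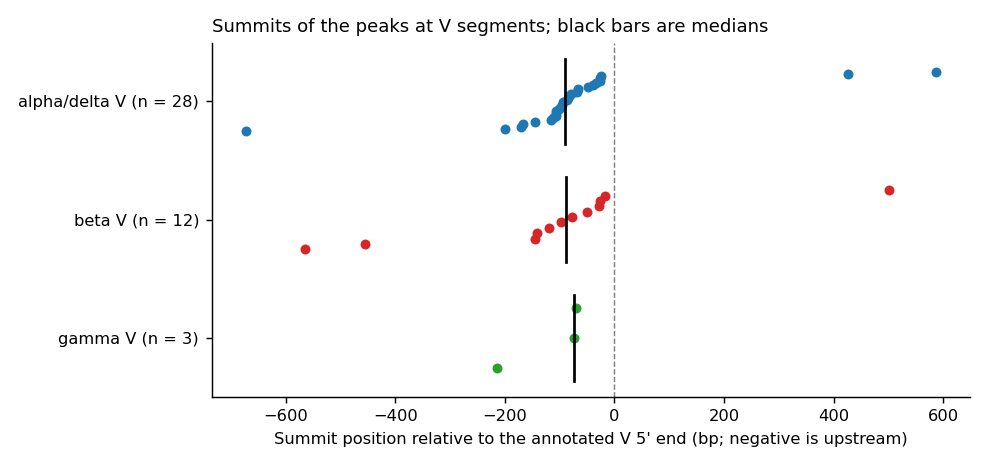
Position of the summit relative to the annotated 5′ end of the V segment, in bp along the gene, 1 point per V segment and the median of each locus as a black bar. The medians lie between −89.5 and −74 bp, and 3 of 43 summits lie downstream.

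Among the alpha V segments, the Trav15-1 copies had the highest signals. Trav15d-1-dv6d-1 (chr14:52863299-52863936) had a signal of 23.8, Trav15-1-dv6-1 23.6 and Trav15n-1 22.3. Next came Trav10n with 20.4, Trav2 with 19.6, Trav16n with 19.4, Trav16d-dv11 with 16.1 and Trav10 with 15.9. The Trav15-2 copies were lower, at 10.5 (d), 12.4 (n) and 14.7 (original). By subgroup, 6 of 6 Trav15, 3 of 3 Trav10, 2 of 2 Trav11 and 2 of 3 Trav16 members held a thresholded peak. Other subgroups were mostly without one: 5 of 15 Trav6, 3 of 11 Trav13, 2 of 9 Trav14 and 1 of 13 Trav7 members held a peak, and 0 of 9 Trav12, 0 of 10 Trav9, 0 of 5 Trav3 and 0 of 4 Trav5 members. The contrast was weaker on the longer list, where 9 of 15 Trav6, 5 of 11 Trav13, 6 of 9 Trav14 and 6 of 13 Trav7 members did. So did 2 of 5 Trav3, 2 of 4 Trav5, 1 of 9 Trav12 and 1 of 10 Trav9 members. These subgroups differ in how much of their windows is unique, and near-identical copies count as separate members. The median share of 36-base stretches that occur once in the genome was 0% for Trav9, Trav11 and Trav12. It was 1.40% for Trav15 and at most 51.1% (Trav3) among the subgroups listed. Trav1, the first V segment of the locus, had no peak on either list. Of the 10 alpha V segments whose name also carries a delta number, because they can join to delta segments too, 6 held a peak (exact interval 26.2 to 87.8%), against 24.3% of all alpha/delta V segments and 23.7% of all genes, and 4 of the 6 were Trav15 copies.

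Trav11 is the V segment of the invariant NKT cell receptor, which joins it to Traj18. Trav11 held a peak of signal 14.4 and its copy Trav11d one of 13.2, and the pseudogene copy Trav11n lay under a peak of 13.4. Traj18 had no peak on either list. None of the 1001-base windows at Trav11 and Trav11d held a 36-base stretch that occurs once in the genome, so reads there have more than 1 place of origin.

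Near-identical copies touch most of the alpha V results. A large part of the alpha V region is present in 3 copies, named d, n and without a letter, and 31 V positions (93 segments and pseudogenes) had all 3. Windows of 500 bp on either side of the 5′ end had a median identity of 95.7% between d and n copies, 89.6% between d and the original and 90.5% between n and the original. Windows were aligned end to end with gaps counted as differences, so copies with 5′ ends annotated at different points score lower. The d and n windows of Trav15-1 scored 87.6%, with 0% unique 36-base stretches in both. In 6 of the 31 positions all 3 copies held a thresholded peak, in 3 positions 2 copies did, in 5 positions 1 copy, and in 17 positions none. On the longer list all 3 copies held a peak in 13 positions, 2 copies in 5, 1 copy in 6 and none in 7. The positions with thresholded peaks at all copies were Trav10, Trav6-6, Trav11, Trav15-1, Trav15-2 and the pseudogene position Trav15-3. Signals were close among the copies of Trav15-1 (22.3 to 23.8) and Trav11 (13.2 to 14.4) and further apart at Trav10 (13.4 to 20.4).

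The Trav15-1 copies are shown as an example of such likeness. The 170 bases from 150 before to 20 past the 5′ end of Trav15-1-dv6-1 and the matching stretches of its copies are printed with the bases that differ in capitals. They lie at chr14:53559482-53559651, chr14:53174131-53174300 and chr14:52863171-52863340 on the plus strand of GRCm38.p6, and only 1 position differs among the 3 copies.
Trav15-1-dv6-1: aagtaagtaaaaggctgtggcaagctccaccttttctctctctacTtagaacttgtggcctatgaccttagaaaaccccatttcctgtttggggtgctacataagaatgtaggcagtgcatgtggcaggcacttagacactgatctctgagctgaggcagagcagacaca
Trav15n-1: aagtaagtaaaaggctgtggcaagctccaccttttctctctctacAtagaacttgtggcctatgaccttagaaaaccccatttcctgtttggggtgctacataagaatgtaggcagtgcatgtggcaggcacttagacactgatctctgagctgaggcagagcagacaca
Trav15d-1-dv6d-1: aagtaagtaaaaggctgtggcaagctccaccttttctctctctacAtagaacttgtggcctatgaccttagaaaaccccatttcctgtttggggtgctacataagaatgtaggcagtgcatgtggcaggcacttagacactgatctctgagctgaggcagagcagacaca

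Windows with a peak were the less unique ones in the alpha/delta locus. Across the 28 V windows with a thresholded peak a median of 5.12% of 36-base stretches occurred once in the genome, and across the 87 without a peak 36.7%. With 100-base stretches the medians were 22.7% and 78.7%. No unique 36-base stretch was found in 11 of the 28 windows with a peak and 18 of the 87 without. In the beta locus the median was 99.7% with or without a peak. The sources used here give neither the read length nor the handling of reads with several places, and the part that shared reads play in the alpha/delta V peaks was not tested. Limited to the 33 alpha/delta V segments whose window was at least 90% unique by 100-base stretches, 4 held a thresholded peak (12.1%, 3.40 to 28.2), namely Trav2, Trav8n-2, Trav4-4-dv10 and B230359F08Rik, and 12 held a pseudoreplicated peak. The same limit left the beta share at 12 of 22. The 4 pseudogenes with a peak, Trav11n, Trav15d-3, Trav15n-3 and Trav15-3, belong to the subgroups whose other copies held peaks.

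**Figure D4:**
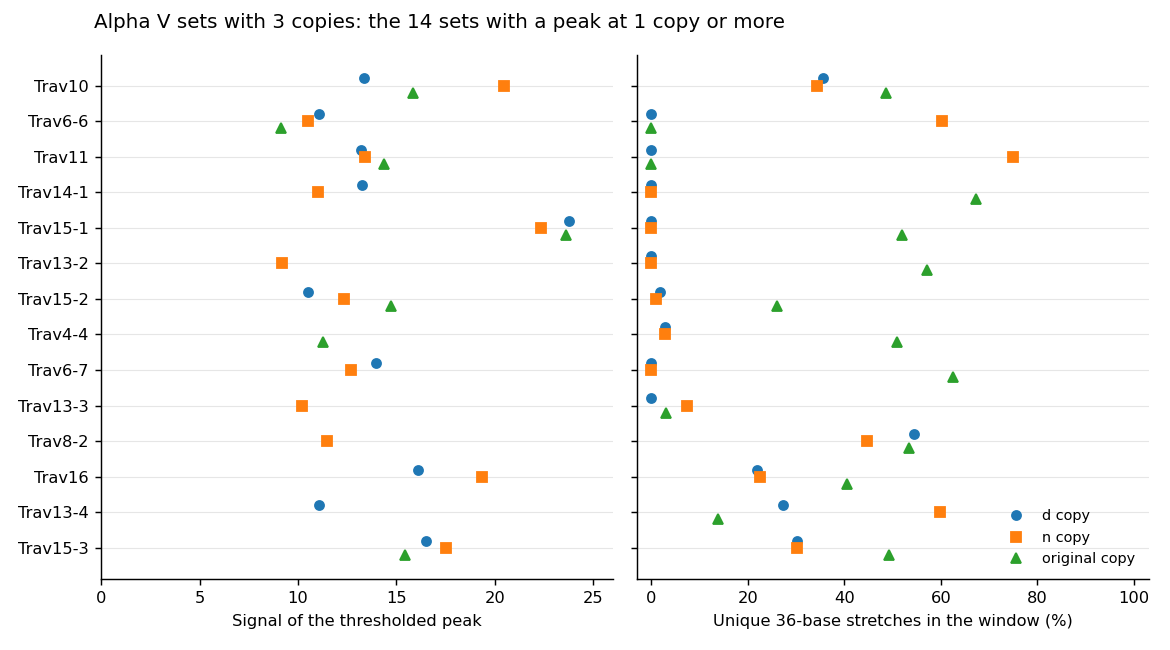
Alpha V positions with 3 copies of which at least 1 held a thresholded peak, pseudogene copies included. The left panel gives the signal of the peak at each copy (no mark where there is no peak) and the right panel the percentage of 36-base stretches in the window that occur once in the genome. Peaks are present at copies with 0% unique stretches, such as the d and n copies of Trav15-1.

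Some alpha/delta peaks lay between V segments and were repeated with them. The highest signal of the locus, 24.7, belonged to chr14:52848026-52848315, 3115 bp from Trav13d-1 and in no annotated gene. A peak of signal 23.5 (chr14:53159076-53159349) lay 3131 bp from Trav12n-1, and the 301 bases around these summits were 96.7% identical. A further peak 3097 bp from Trav12-1 had a signal of 12.9 and 78.8% identity to the first. The peaks at chr14:52945003-52945245 and chr14:53256003-53256290, 1838 bp from Trav13d-2 and 1844 bp from Trav13n-2, were 97.05% identical, with signals of 12.1 and 10.4.

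Beta V segments exist in single copies for the most part, and their peaks can be read segment by segment. Trbv23 (chr6:41216073-41216526) had the highest signal of the locus, 23.5, with a −log10 p of 205. Trbv1, the first V segment, followed with 16.5, then Trbv2 with 14.2, Trbv12-1 with 12.1, Trbv21 with 10.7, Trbv3 with 10.02, Trbv16 with 7.93 and Trbv20 with 7.51. Trbv12-1 had the highest −log10 p of the V segments, 301, although its signal was only the fourth. Trbv31, which lies past the C segments in the opposite direction, had the lowest signal of the open beta V segments, 3.65, with a −log10 p of 81.6. On the longer list 4 further segments, Trbv13-3, Trbv15, Trbv19 and Trbv26, held a peak at the 5′ end, with signals from 4.17 to 5.63. None of the 13 beta V pseudogenes held a peak on either list.

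The promoter of Trbv1 is shown as the single-copy V promoter at the 5′ edge of the beta locus, from 150 bp before to 20 bp past its 5′ end (chr6:40891079-40891248, plus strand), with capitals as for the C segment peaks. It holds a RUNX and an ETS match.
Trbv1: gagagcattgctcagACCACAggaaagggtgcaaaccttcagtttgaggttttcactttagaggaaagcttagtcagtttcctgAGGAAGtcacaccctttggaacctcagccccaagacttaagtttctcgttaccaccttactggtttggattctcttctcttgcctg

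A cyclic AMP response element (CRE) variant is a known feature of beta V promoters, and its letters were searched as TGATGTCA on both strands. In the 300 bp from 250 before to 50 past the 5′ end it was found at 8 of 22 beta V members, 2 of 115 alpha/delta V members and 3.19% of all 55413 genes. In the 8 it began between 89 and 51 bp upstream of the 5′ end. Of the 8 segments 4 held a thresholded peak and 4 did not, out of 12 with a peak and 10 without. Among those with a peak, Trbv13-2 was counted through a peak (chr6:41121673-41122065) that begins downstream of the match and does not cover it. The stretches are printed in the direction of the gene with the match in capitals. They all lie on the plus strand of chromosome 6, starting at positions 41113463, 41115943, 41118764, 41121303, 41130054, 41141088, 41215996 and 41271332 in the printed order.
Trbv12-1: acctcagaaccTGACATCAtaggcagtaag
Trbv13-1: gttggagacagTGACATCActaagtcactg
Trbv12-2: acctcagaatcTGACATCAcaggcaatgag
Trbv13-2: tttggagacagTGATGTCActaagtcactg
Trbv13-3: tttatagacagTGACATCActaagtcactg
Trbv15: ggcttatctgaTGATGTCActgaccaatag
Trbv23: ttaccaagggaTGATGTCAcaggaaggata
Trbv29: gtcaaagacagTGACATCAtaagcactcaa

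Gamma V segments showed peaks at 3 of 7 members on both lists. Tcrg-V6 had a signal of 11.1, Tcrg-V7 of 7.38 and Tcrg-V3 of 7.30, all below the median of all peaks. Tcrg-V4, Tcrg-V5, Trgv2 and Tcrg-V1 had none. The other 4 peaks of the locus lie in no gamma segment. The gene Gm31887, which overlaps the first V segments, held peaks of 21.6 (chr13:19162078-19162504, 15737 bp before Tcrg-V7) and 19.4 (chr13:19182105-19182786, 2534 bp before Tcrg-V4) in an intron. The other pair of peaks, of signal 9.95 and 17.9, lay in an intron of the neighbouring gene Stard3nl.

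D segments add a few bases between V and J in the beta and delta chains. Both beta D segments had a peak near them and neither delta D segment did. The Trbd1 peak (chr6:41532195-41533230) had a signal of 10.7 and a −log10 p of 155 and covered the segment, with its summit 336 bp upstream. The Trbd2 peak (chr6:41541598-41542095) had a signal of 3.92 and a −log10 p of 45.1, with its summit 283 bp upstream, and ended before the segment. Trdd1 and Trdd2 had no peak on either list.

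J segments, the short pieces that join to C, were nearly without thresholded peaks over the segment itself. A thresholded peak lay over 1 of 51 alpha J segments (1.96%, 0.0496 to 10.4), 0 of 13 beta J, 0 of 4 gamma J and 0 of 2 delta J segments. Among all genes of at most 100 bp the share was 4.27%, so the J segments did not stand above genes of their size. The alpha J segment with a peak was Traj7 (chr14:54211470-54211528), with a signal of 4.23 and a −log10 p of 35.2. The pseudogene Traj1 lay under a peak of signal 3.597. On the longer list 5 of 51 alpha J segments held a peak, among them Traj42 (signal 5.19) and Traj40 (3.11), against 5.74% of short genes. The ends of the alpha J block, Traj59 and Traj2, had none, nor had Trbj1-1. A peak of signal 7.64 and −log10 p 164 (chr6:41544277-41545019) began just past Trbj2-7, between the J segments and Trbc2.

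C segments encode the constant part of the receptor chains. Of the 8 members only Trac held a peak over the gene, on both lists (12.5%, exact interval 0.316 to 52.7%). Among protein-coding genes, which were not matched for length, 57.2% held a thresholded and 63.4% a pseudoreplicated peak over the gene. The Trac peak lay in an intron (chr14:54222203-54222781), 2056 bp past the 5′ end, with a signal of 7.44 and a −log10 p of 300. Trdc, Trbc1, Trbc2, Tcrg-C1, Tcrg-C2, Tcrg-C3 and Tcrg-C4 had no peak over the gene on either list. None of the 8 had a peak at its 5′ end on either list (exact interval 0 to 36.9%), against 23.7% of all genes on the thresholded list and 26.8% on the longer one.

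Beyond the C segments lay the peaks with the strongest −log10 p of both loci. Past Trac, a peak 3428 bp beyond its 3′ end (chr14:54227255-54228124) had a signal of 8.34 and a −log10 p of 423, and the alpha enhancer is known to lie in that interval between Trac and Dad1. A peak 9284 bp beyond Trac (chr14:54233147-54233752) had a signal of 12.5 and a −log10 p of 365, and an intron of Dad1, a subunit of the oligosaccharyltransferase, held a peak of signal 17.97. In the beta locus the peak between Trbc2 and Trbv31 (chr6:41554290-41555138) had a signal of 10.97 and a −log10 p of 684, in the 96.3 percentile of all peaks. The beta enhancer is known to lie between these genes. A smaller peak beside it (chr6:41553359-41553679) had a signal of 4.90 and a −log10 p of 158. The ranked list gives 2 input −log10 p values per peak, which were 218 and 219 for the peak past Trac and 323 and 350 for the one past Trbc2. Over the 86 locus peaks the larger of the 2 inputs was a median of 1.203 times the smaller, and over all peaks 1.16 times.

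Peak by peak, most V part peaks ranked lower in −log10 p than in signal, and most J and C end peaks ranked higher. The V part of the alpha/delta locus held 45 peaks with a median signal in the 46.9 percentile and a median −log10 p in the 24.04 percentile, and 43 of the 45 had the lower percentile in −log10 p. The 9 peaks from 2 kb before Traj59 onward had a median signal of 4.64, in the 4.30 percentile, and 8 of 9 ranked higher in −log10 p. Their median −log10 p was in the 28.6 percentile, close to that of the V part. In the beta locus all 6 peaks from 2 kb before Trbd1 onward ranked higher in −log10 p, and 15 of 19 V part peaks ranked lower. The beta medians of signal and −log10 p were in the 25.9 and 23.4 percentiles for the V part and in the 11.1 and 60.4 percentiles for the J and C end. The dividing points were chosen after these values were seen.

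**Figure D5:**
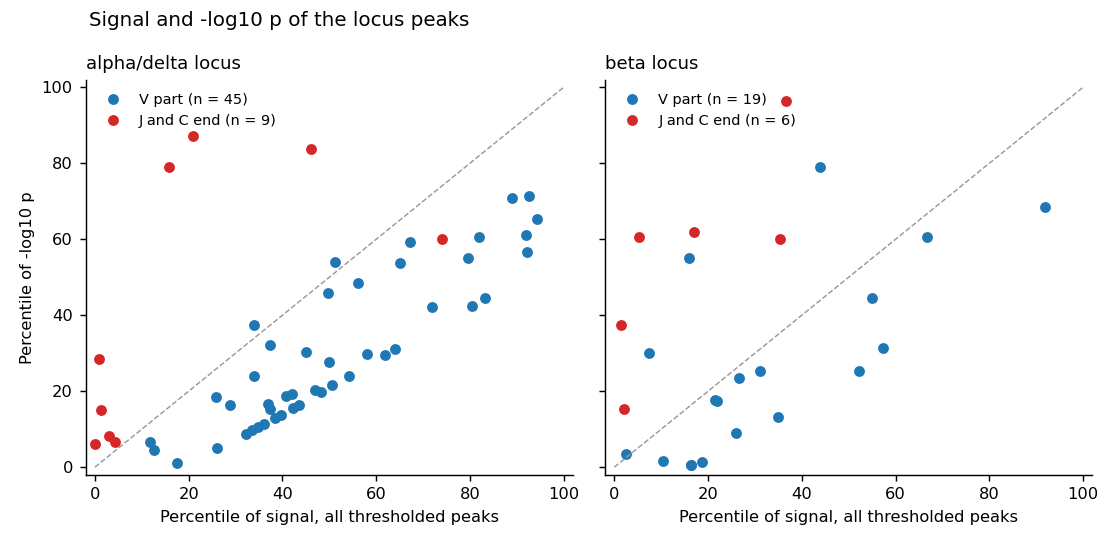
Percentile of −log10 p against percentile of signal among all thresholded peaks, for peaks of the V part (blue) and of the J and C end (red), with equal percentiles as a dashed line. Of the red points 8 of 9 in the alpha/delta locus and 6 of 6 in the beta locus lie above the line.

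Each locus had a long stretch without a thresholded peak. In the alpha/delta locus no summit lay in 395 kb from chr14:53802690 to chr14:54197938, which holds 49 members from Trav17 to Traj22, namely 10 V, 2 D, 36 J and 1 C segment. All delta segments named Trdv, Trdd, Trdj and Trdc lie in it. On the longer list the widest gap was shorter, 156 kb, and Trdv2-2 held a peak of signal 6.68, while the other 4 Trdv members, Trdv5 at the 3′ end among them, held none. In the beta locus the gap of 289 kb runs between Trbv23 and a peak in an exon of Gm38018 (signal 13.6), and it holds 3 V segments and 7 protein-coding genes. The 12 trypsinogen and related genes that lie inside the beta locus, genes of the pancreas, held 0 thresholded peaks. The 4 olfactory receptor genes in or beside the alpha/delta locus held 0 as well. On the longer list a peak of signal 4.59 lay in an exon of Olfr1509, an olfactory receptor gene. In the gamma locus the gap of 122 kb holds 8 members from Trgj3 to Tcrg-C4, namely 2 V, 3 J and 3 C segments, and ends at the Stard3nl intron peaks beyond the last C segment.

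Motif letters were counted under all peaks of the loci, as a description of the sequence only. In the 301 bases around the summit RUNX letters were found in 33 of 86 locus peaks (38.4%), against 25.6% of all 34610 peaks, in 25 of 54 alpha/delta, 8 of 25 beta and 0 of 7 gamma peaks. GATA letters were in 20 of 86 (23.3%, against 12.1%), and ETS letters in 43 of 86 (against 58.2%). E box letters were in 36 of 86 (41.9%, against 35.1%), TCF/LEF letters in 15 (17.4%, against 11.1%), NFAT letters in 17 (19.8%, against 22.0%) and AP-1 letters in 7 (8.14%, against 9.28%). The CTCF core motif was in 4 of 86 (4.65%, against 2.67%). CRE letters were in 0 of 86 (against 1.95%). The copied alpha V peaks share their sequence, so these shares count the same letters more than once.

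Genes of the receptor complex and of recombination were read in the same way. Of the T cell receptor complex, the signalling chains that carry the receptor to the surface, Cd3e (signal 15.4), Cd3g (17.2), Cd247 (11.4) and Cd3d (4.14) held a peak at the 5′ end. Ptcra, the pre-T alpha chain of developing thymocytes, held none. Of 14 recombination and end joining genes 10 held one, against 47.2% of protein-coding genes. The members without were Rag1 and Rag2, the recombinase itself, Dntt, the terminal transferase that adds bases at the joints, and Xrcc6, a DNA end binding subunit. Within the gene and 20 kb on either side, Rag1, Dntt and Ptcra had 3 thresholded peaks each, and Rag2 and Xrcc6 had 2 each. The stretches of Rag1 and Rag2 overlap. Only the annotated 5′ end of each gene was read, so other start sites were not looked at. Xrcc4 (24.8) and Poll (23.6), which act in joining the ends, had the highest signals of the list.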

How the data were processed

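ATAC-seq peaks of 2 libraries, technical replicates of 1 biological replicate of regulatory T cells, were analysed as 1 pool. The authors deposited 3 peak lists on mm10, per the labels, called on an alignment that both libraries share; which aligner and caller were used, and how reads with several places were treated, is not given in the sources used here. The deposited signal is an enrichment value per peak, and the deposited −log10 p values are those of the authors' caller. The ranked list also has a deposited IDR score, on which no result rests. Each peak's summit is the deposited start plus the deposited offset.

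Lines that share an interval were reduced to 1 peak, and coordinates are 1-based on GRCm38.p6, whose 21 chromosomes have the mm10 lengths. Segments came from GENCODE M21. A V segment was open when a peak overlapped by 1 bp or more the 500 bp on either side of its 5′ end, and J, D and C segments were read over the segment itself. Uniqueness is the share of 36- or 100-base stretches found once on both strands of the 21 chromosomes. Shares carry exact 95% intervals, which cover counting error only, and no p-value was computed. The depth is unknown, so it gives no interval.

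All C and D members were named, and of V and J members per locus those with a peak, or the 8 of highest signal where over 10 had one, and those at both ends, with the 5 strongest peaks per locus. Trav11, Traj18 and the fixed gene lists were also named. Segments and copies named for a motif, a subgroup, a gap or a repeat were chosen after their values were seen. The members and lists were chosen with earlier results of these data known. Functions were tested on simulated data. Python 3.11.15 with pandas 2.3.3, numpy 2.4.6, scipy 1.17.1, Biopython 1.88 and numba 0.67.0 was used. The 43 alternatives changed the list, threshold, overlap, window or flank.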

Additional observations from a re-analysis of the deposited data

How the results depend on the processing

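Of 43 alternatives 20 stayed within 1.5 times the reported count or within the reported interval, and 23 did not, most of them because they use a longer or shorter list. On the pseudoreplicated list the loci held 126, 48 and 12 peaks (alpha/delta, beta and gamma), and the alpha/delta V share was 47.0%. Keeping thresholded peaks at or above the median signal, the loci held 21, 5 and 3 peaks, the V shares were 11.3%, 13.6% and 0%, and the alpha J and the beta J and D shares were 0%. Keeping those at or above the median −log10 p, the loci held 14, 8 and 3 peaks, the V shares were 4.35%, 18.2% and 0%, and the alpha J share was 0%. Counting every summit gave 39 beta peaks. Without flanks the gamma locus held 3 peaks. A summit inside the segment gave 0% for alpha J and for beta J and D segments. The V shares stayed within their intervals with windows of 250 and 1000 bp and with the summit required inside the window.

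Leaving out a replicate was not possible, as the lists pool both libraries. No paired analysis was possible because there is 1 group and no value per library. Unknown depth limits every statement on a segment without a peak.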
